A study of Homo sapiens with 6 samples.

Results

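A set of 10 genes that control the passage of cells through G1 were followed in the transcriptomes of A2780 cells with and without an edited CDK12 gene. They were chosen by name for their role: the D-type cyclin genes CCND1, CCND2 and CCND3, the kinase genes CDK4 and CDK6, the inhibitor genes CDKN1B, CDKN2A, CDKN2B and CDKN2C, and RB1. They are 10 of the 60483 genes listed in the count table. The rule uses their names and no threshold on a measured value.

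A2780 is an established ovarian carcinoma line. RNA-seq covered 6 libraries, 3 of the A2780 line with genotype WT and 3 of its CDK12 KO derivative. The KO cells descend from 1 homozygous clone, obtained by 2 successive transfections of a Cas9 and guide plasmid directed at exon 1 of CDK12 with a heterozygous clone in between, and the WT cells were not cloned. Both were grown in the same RPMI medium with FBS and glutamine and without a drug, and the karyotype of the clone was described by the study as near-tetraploid, so that loss of CDK12, cloning and ploidy cannot be told apart in any WT to KO difference.

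In growing cells, D-type cyclins bind CDK4 or CDK6, and the active kinases phosphorylate the RB1 protein, which otherwise holds E2F transcription factors inactive. INK4 proteins, encoded by CDKN2A, CDKN2B and CDKN2C, bind CDK4 and CDK6 and keep D cyclins away from them, whereas the CIP/KIP protein p27, encoded by CDKN1B, mainly restrains CDK2 with cyclin E. Once RB1 is phosphorylated, E2F factors switch on genes of DNA replication and the cell enters S phase.

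The libraries held 11098400 to 30899045 reads counted on genes, so that 3 reads, the upper limit that a count of 0 allows, correspond to 0.0971 to 0.270 CPM (the reads of a gene relative to all counted reads of its library). CPM values are scaled by TMM, a factor that corrects for composition differences between libraries. CDK12 itself, edited in exon 1, was counted in all libraries (103, 125 and 116 CPM for WT, 98.9, 92.9 and 102 CPM for KO, log2 fold change -0.23), and a count over the whole gene does not check the edit. Markers of the labelled tissue were mostly missing in both groups: PAX8, WT1, MUC16 and CDH1 stayed at or under 0.200 CPM on average, 8 of 12 ovarian epithelial genes were too low to test, and the summed level of the 12, mostly KRT18, was 69.6 to 75.4 CPM in WT and 117 to 121 CPM in KO. The sum of 8 fibroblast genes, nearly all of it collagen, moved the other way, from 11120 to 11500 CPM in WT to 8652 to 8929 CPM in KO, while 6 immune and 5 endothelial genes summed to at most 1.15 CPM in any library. Neither list moved as a whole. COL1A1 and COL1A2 carried the fibroblast fall, while COL3A1 was level (6000 CPM in WT, 5953 in KO) and THY1 rose (log2 fold change 0.26). Among the epithelial genes EPCAM fell (-0.535). The part of these shifts in the results below was not tested. Nothing in the labels says whether the libraries came from separate cultures, so p-values measure only the spread between these libraries, which may be technical, and no batch was given.

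Promoter sequence is shown for the cyclin gene that rose and for both kinase genes, which fell from very different levels. Each line gives the 250 bases before the RefSeq start on GRCh38.p14, read 5′ to 3′ on the strand of the gene, with the letters CACGTG (the E-box, bound by MYC and its relatives) in capitals.
CCND3: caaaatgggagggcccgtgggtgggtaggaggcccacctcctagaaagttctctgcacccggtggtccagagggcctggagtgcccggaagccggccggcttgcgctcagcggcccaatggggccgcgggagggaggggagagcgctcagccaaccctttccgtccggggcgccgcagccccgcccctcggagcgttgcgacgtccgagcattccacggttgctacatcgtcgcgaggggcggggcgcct
CDK4: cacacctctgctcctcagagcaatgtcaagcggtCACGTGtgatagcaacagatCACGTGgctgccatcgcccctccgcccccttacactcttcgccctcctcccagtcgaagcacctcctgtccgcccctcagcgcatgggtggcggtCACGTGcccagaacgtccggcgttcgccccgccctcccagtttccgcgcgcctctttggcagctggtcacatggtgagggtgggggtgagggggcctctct
CDK6: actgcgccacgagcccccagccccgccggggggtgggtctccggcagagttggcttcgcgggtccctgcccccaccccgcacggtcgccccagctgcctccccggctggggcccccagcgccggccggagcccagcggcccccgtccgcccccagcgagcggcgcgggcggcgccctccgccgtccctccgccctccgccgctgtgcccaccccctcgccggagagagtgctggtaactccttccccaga
The windows are chr6:41941809-41942058 for CCND3, chr12:57752311-57752560 for CDK4 and chr7:92836574-92836823 for CDK6, all on the minus strand. CDK4 had 3 E-boxes in its window, a number reached by 24 of the 27305 promoters of this length in the table (0.0879%), whereas 6.49% held at least 1. The windows of CCND3 and CDK6 held none. CCND1 and CCND2 had no entry, so their promoters were neither shown nor searched. Of the 8 genes with an entry, RB1 was set aside because its window lies 172699 bases from its main annotated start. Among the remaining 7, CDKN2C had 1 E-box, and neither TTTCCCGC nor TTTGGCGC, the words searched for E2F on both strands, was present in any of them (1.96% of all promoters held one). GGGCGG, the GC box, occurred in each of the windows shown, as it did in 42.3% of all promoters, and the letters alone do not show a bound site.

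Of the 10 genes, 7 passed the filter on low counts and were tested, and CCND2, CDKN2B and CDKN2C were not. A gene was called up or down when the quasi-likelihood test of edgeR gave it an adjusted p under 0.05 and its log2 fold change (KO against WT) was above 1 or below -1. By this rule 2 of the 7 were down, CCND1 and CDK6, and 0 were up, beside 7.73% down and 8.3% up among all 16198 tested genes. By the adjusted p alone, CCND3 and RB1 were higher in KO and CCND1, CDK4, CDK6 and CDKN1B were lower, against 31.9% higher and 32% lower of all tested genes, so that passing this p was common across the transcriptome. The KO values lay wholly above or below the WT values for 6 of the 7, CDKN2A being the exception, and for 66.3% of all tested genes. The median log2 fold change of the 7 was -0.22, beside 0.00 for all tested genes. CDK6 passed the filter through its WT libraries alone, and counts over the 7 do not stand for all 10.

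**Figure D1:**
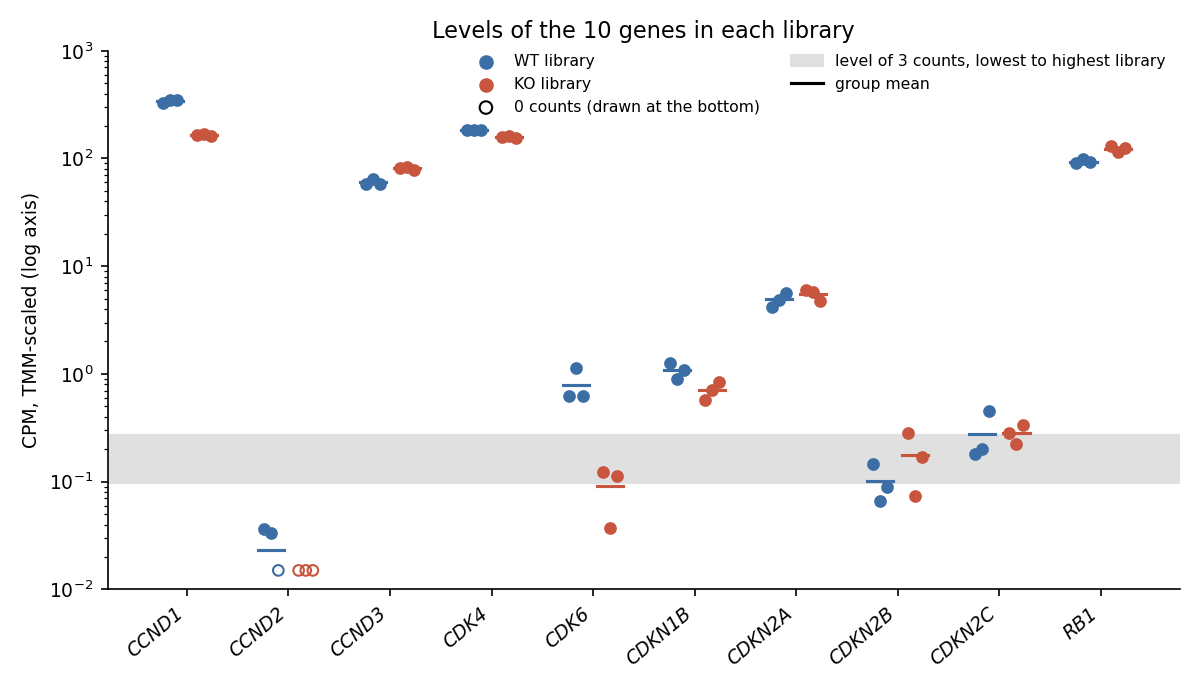
CPM of each of the 10 genes on a log axis, with 1 point per library, WT in blue and KO in red, short lines for the group means and a grey band for the level of 3 counts (0.0971 to 0.270 CPM). CCND1, CDK4, RB1 and CCND3 stand above 50 CPM in every library, CDKN2A near 5 CPM, and the remaining genes near or below 1 CPM.

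CCND1, the gene of cyclin D1 (ENSG00000110092, chr11:69641156-69654474 on GRCh38, plus strand), was the most abundant D cyclin in both groups. It had 325, 352 and 345 CPM in the WT libraries and 167, 168 and 162 CPM in the KO libraries. The lowest WT library was thus far above the highest KO library, and within each group the libraries differed little (341 ± 14.0 and 166 ± 2.89, SD, n = 3). The level in WT was 2.05 times that in KO, a log2 fold change of -1.04 (SE 0.0477, edgeR adjusted p = 5.63e-19). The estimate sat on the threshold of 1, between -1.08 and -1.01 in all 13 other fits, and a test of whether the change exceeded 2-fold (edgeR's glmTreat) did not pass (adjusted p = 0.567).

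CCND3, encoding cyclin D3 (ENSG00000112576, chr6:41934934-42050357, minus strand), moved in the opposite direction. WT libraries had 58.3, 64.2 and 58.0 CPM and KO libraries 81.0, 82.8 and 78.4 CPM, with no overlap. The rise was 1.34-fold (log2 fold change 0.42, SE 0.0540, edgeR adjusted p = 4.32e-08), well short of the fold threshold. CCND2, encoding cyclin D2 (ENSG00000118971, chr12:4269771-4305353, plus strand), had 1, 1 and 0 reads in WT and 0 in each KO library, which is at the limit of detection in both groups.

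Counts per kb of exon, scaled for depth as CPM are (RPKM), put the 3 cyclins on a common scale. Their summed RPKM was 78.4, 85.1 and 82.6 in WT and 49.1, 49.6 and 47.7 in KO, so each KO library had less D cyclin transcript than each WT library although CCND3 rose. The KO mean was 0.595 of the WT mean. CCND1 made up 87.1%, 86.9% and 87.8% of the sum in WT and 71.4%, 71.0% and 71.5% in KO, and CCND3 made up nearly all of the rest, 12.7% ± 0.474 in WT and 28.7% ± 0.230 in KO (SD, n = 3). These shares depend on the length given to each gene. With the longest transcript in place of all exons, CCND1's share was 76.2% in WT and 53.7% in KO, a larger fall (22.5 against 15.97 percentage points). Cyclin D1 transcripts remained the larger part in KO by either length.

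**Figure D2:**
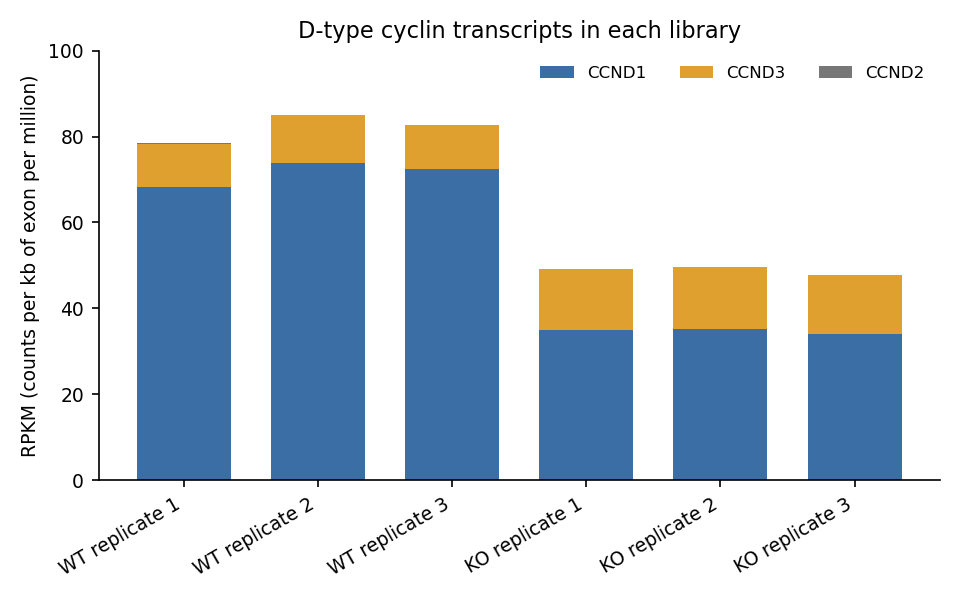
Stacked bars of the RPKM of CCND1 (blue), CCND3 (orange) and CCND2 (grey, too small to see) in each library. The 3 WT bars reach 78.4 to 85.1 RPKM and the 3 KO bars 47.7 to 49.6 RPKM, with a lower blue and a higher orange part in KO.

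CDK4 (ENSG00000135446, chr12:57747727-57756013, minus strand) carried almost all of the transcript of the kinases that D cyclins activate. Its level was 185, 185 and 183 CPM in WT and 159, 162 and 154 CPM in KO. The difference was small but larger than the spread of either group, at a log2 fold change of -0.22 (SE 0.0466, edgeR adjusted p = 1.39e-04). Exons of TSPAN31, a tetraspanin gene on the opposite strand, cover 44.3% of the exon bases of CDK4. TSPAN31 itself had 287, 311 and 111 reads in WT and 4, 12 and 6 in KO (log2 fold change -5.00), against 2039 to 5536 reads of CDK4 in the 6 libraries. The reads were stranded, but the strand setting of the counting is not given in the sources used here, and the part of TSPAN31 in the CDK4 value was not tested.

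CDK6 (ENSG00000105810, chr7:92604921-92836573, minus strand), the closest relative of CDK4, was close to undetected in WT and lower still in KO. It had 17, 34 and 7 reads in WT and 3, 1 and 2 in KO, or 0.620, 1.13 and 0.630 CPM against 0.122, 0.0371 and 0.112 CPM. The highest KO value was thus well under the lowest WT value, and 58 pooled WT reads stood against 6 in KO. The depth-corrected ratio of WT to KO was 9.78, with a 95% exact interval from 4.23 to 27.8 that covers counting error only, and the fitted log2 fold change was -3.20 (SE 0.485, edgeR adjusted p = 8.37e-07). The change exceeded 2-fold by glmTreat (adjusted p = 1.65e-04). CDK6 passed the filter on low counts only with its WT libraries, and no KO library had more than 3 reads, so the size of the fall is poorly fixed. This fall hardly touched the sum of both kinases, since CDK6's share of their RPKM was 0.109% ± 0.0401 in WT and 0.0145% ± 0.00759 in KO (SD, n = 3).

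Among the inhibitors, none was called in either direction. CDKN1B, encoding p27 (ENSG00000111276, chr12:12685498-12722369, plus strand), had 35, 27 and 12 reads in WT and 14, 19 and 15 in KO. In CPM these were 1.28, 0.900 and 1.08 against 0.569, 0.705 and 0.842, so the lowest WT library lay only just above the highest KO library. The log2 fold change was -0.64 (SE 0.274) with an edgeR adjusted p of 0.0425. This call was lost in 8 of 13 other fits, where the adjusted p ranged up to 0.228. The pooled reads, 74 in WT and 48 in KO, gave a KO to WT ratio of 0.641 with an exact interval from 0.436 to 0.934, again for counting error only.

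CDKN2A (ENSG00000147889, chr9:21967752-21995301, minus strand) encodes both p16INK4a and, in another reading frame, p14ARF, which acts on p53 through MDM2, and gene counts do not separate these transcripts. It had 4.19, 4.87 and 5.67 CPM in WT and 5.97, 5.71 and 4.77 CPM in KO, and the groups overlapped. The log2 fold change of 0.22 (SE 0.131) did not pass (edgeR adjusted p = 0.145, exact two-sided permutation p = 0.4). Exons of the antisense RNA CDKN2B-AS1 cover 15.3% of its exon bases, but that gene had only 4 to 9 reads in any library.

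CDKN2B, the gene of p15INK4b (ENSG00000147883, chr9:22002903-22009305, minus strand), had 4, 2 and 1 reads in WT and 7, 2 and 3 in KO. The ratio of KO to WT was 1.69 with an exact interval from 0.615 to 5.08. CDKN2C, the gene of p18INK4c (ENSG00000123080, chr1:50960745-50974634, plus strand), had 5, 6 and 5 reads against 7, 6 and 6, a ratio of 1.17 (0.572 to 2.44). Both genes were near the limit of 3 reads, and no difference was detectable at this depth. Summed over the 3 INK4 genes, the RPKM was 1.38 ± 0.230 in WT and 1.55 ± 0.161 in KO (SD, n = 3), of which CDKN2A was by far the largest part.

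RB1 (ENSG00000139687, chr13:48303744-48599436, plus strand), the pocket protein on which the pathway converges, was well expressed and higher in KO. Its level was 90.3, 98.6 and 91.8 CPM in WT and 129, 116 and 125 CPM in KO, without overlap. The log2 fold change was 0.39 (SE 0.0527, edgeR adjusted p = 9.60e-08), beside 0.42 for CCND3.

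For CCND1, CCND3, CDK4, CDK6, CDKN1B and RB1, whose groups did not overlap, the exact two-sided permutation test over the 6 libraries gave p = 0.1, the smallest value that 3 libraries against 3 can give.

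Per kb of exon, the mean levels in WT ran from CCND1 (71.6 RPKM) through CDK4 (59.6), RB1 (14.5) and CCND3 (10.4) to CDKN2A (1.26). The other 5 genes had means below 0.12 RPKM. CCND1 and CDK4 were higher than 97.3% and 96.4% of the tested genes with an annotated length, and CDKN1B and CDK6 were higher than 4.97% and 2.88%. In KO the order of the leading genes became CDK4 (51.2 RPKM), CCND1 (34.8), RB1 (19.1) and CCND3 (14.0). Within each group these 4 genes did not overlap with each other in any library, but with the longest transcript as length CDK4 already stood above CCND1 in WT and CCND3 above RB1 in both groups. At the low end the values of CDKN2C overlapped those of CDKN1B in both groups and those of CDK6 in WT, but with the longest transcript as length CDKN1B stood above CDKN2C in every library of its group.

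The rest of the G1/S pathway was described by 38 further genes, all of them tested. Of these, 11 were higher and 21 lower in KO at adjusted p under 0.05 and 6 were neither. Among all tested genes 31.9% were higher and 32% lower. The median log2 fold change of the 38 was -0.22, as among the 7 tested genes above, against 0.00 for all tested genes. Past both thresholds were CCNE2 and E2F8, which fell, and CDKN1C, which rose, beside 7.73% down and 8.3% up of all tested genes. CCNE2, encoding cyclin E2, a partner of CDK2, had 2.81, 3.77 and 3.87 CPM in WT and 0.650, 0.594 and 0.337 CPM in KO (log2 fold change -2.63, SE 0.235, edgeR adjusted p = 1.69e-11). It had 16, 16 and 6 reads in KO and passed the filter on low counts only with its WT libraries. With CCND1 and CDK6, the late G1 partners CCNE1 (log2 fold change -0.43) and CDK2 (-0.68) were also lower, while the level of CDC25A, the phosphatase that activates CDK2, did not pass the test (0.06).

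CDKN1C, which encodes the CIP/KIP protein p57, had 3.13, 2.17 and 2.52 CPM in WT and 6.22, 4.86 and 4.83 CPM in KO (log2 fold change 1.03, SE 0.157, edgeR adjusted p = 9.72e-07), the opposite direction to CDKN1B. It sat on the fold threshold and was not called without the second WT library or without the first KO library. CDKN1A, the gene of p21, rose by less (0.34), and CDKN2D, the remaining INK4 gene, was lower (-0.68) although its groups overlapped. Of the pocket proteins beside RB1, RBL2 (p130) was higher by 0.32 on the log2 scale, close to RB1, and RBL1 (p107) was lower by 0.33 (its log2 fold change was -0.33).

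Of 10 E2F and DP genes, 7 were lower and 2 higher, beside 32% and 31.9% of all tested genes. The activators E2F1 (-0.37) and E2F2 (-0.47) were lower and E2F3 (-0.03) did not pass. The repressors E2F7 and E2F8 went apart: E2F7 rose from 76.3 ± 4.31 to 137 ± 7.38 CPM (log2 fold change 0.84) and E2F8 fell from 19.4 ± 2.25 to 8.25 ± 0.468 CPM (-1.24, both as mean ± SD, n = 3). Among 11 genes for the turnover of cyclins and inhibitors, 4 were higher, 5 lower and 2 neither, beside the same shares of all tested genes. SKP2 (-0.28) and CKS1B (-0.31), which mark p27 for degradation, were lower. Of another p27 ligase, RNF123 (0.34) was higher and UBAC1 (-0.13) lower. FBXO4 (0.59) and FBXO31 (0.27), reported to target cyclin D1, were higher. AMBRA1, the adaptor for degradation of D cyclins, did not pass (0.13). The CDK-activating kinase was uneven, with CDK7 higher (0.51) and its cyclin CCNH lower (-0.70).

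**Figure D3:**
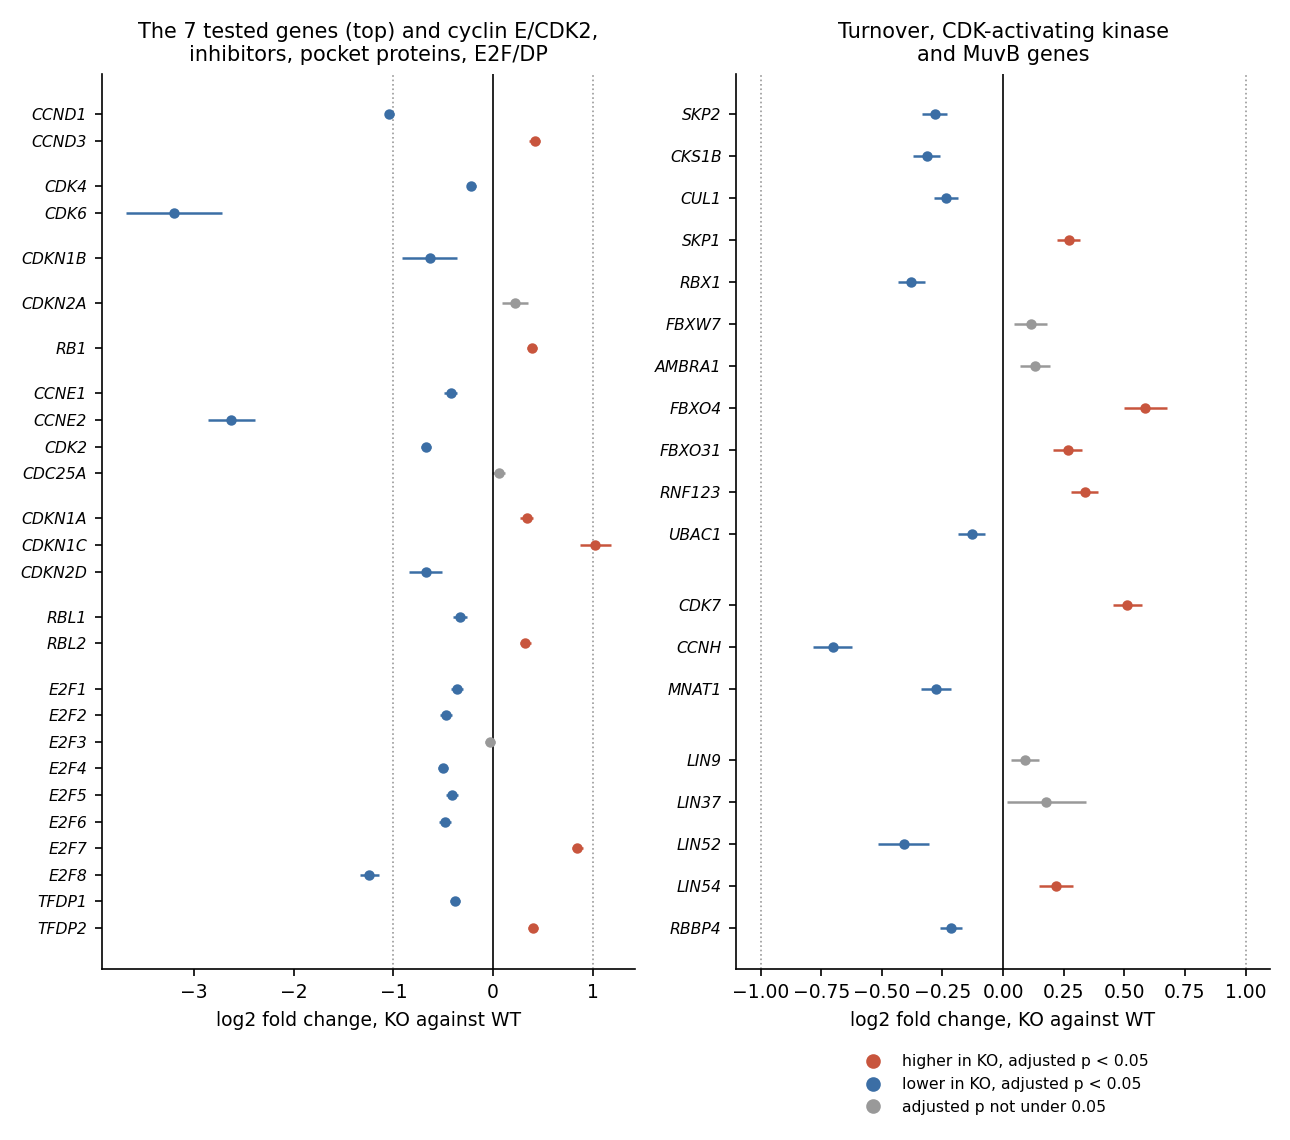
Log2 fold change (KO against WT, points, with bars of 1 SE) of the 7 tested cyclin, kinase, inhibitor and RB1 genes at the upper left and 38 other G1/S genes, grouped by role, with dotted lines at -1 and 1. CDK6 (-3.20), CCNE2 (-2.63), E2F8 (-1.24) and CCND1 (-1.04) lie left of the lower line and CDKN1C (1.03) at the upper line.

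Downstream of RB1, 27 S-phase genes known as E2F targets were read, all of them tested. At adjusted p under 0.05, 20 were lower in KO and 5 higher, beside 32% and 31.9% of all tested genes. None was past both thresholds, beside 7.73% down and 8.3% up of all tested genes. The median log2 fold change was -0.21, against 0.00 for all tested genes. The values ran from -0.65 for GINS1, a subunit of the replicative helicase, to 0.43 for CDT1, a licensing factor. CCNA2, encoding cyclin A2, went from 202 ± 5.18 to 139 ± 6.82 CPM (SD, n = 3, log2 fold change -0.54). The MCM helicase genes were split, with MCM2 higher (0.22), MCM4, MCM5, MCM6 and MCM7 lower (-0.25 to -0.15) and MCM3 not past the test (0.02).

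Of 23 transcription regulators known to act on the 10 genes, 21 were tested. At adjusted p under 0.05, 10 were higher, 6 lower and 5 neither, beside 31.9% higher and 32% lower of all tested genes. The median log2 fold change of the 21 was 0.12, against 0.00 for all tested genes. The regulator with the largest change was TBX3, a T-box repressor known to act on the CDKN2A locus. It rose from 0.328, 0.333 and 0.540 CPM in WT to 17.9, 15.2 and 14.3 CPM in KO (log2 fold change 5.42, SE 0.182, edgeR adjusted p = 9.44e-23), beside a CDKN2A level that did not pass the test. TBX3 had 9, 10 and 6 reads in WT and passed the filter on low counts only with its KO libraries. The other Polycomb and T-box repressors of that locus were mixed, with BMI1 higher (0.72) and EZH2 (-0.72) and TBX2 (-0.48) lower.

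Activators of CDKN1B were also mixed. FOXO1 fell from 71.5 ± 2.67 to 32.6 ± 0.897 CPM (log2 fold change -1.14), and FOXO3 (0.78) and FOXO4 (0.64) were higher. Of the activators of D cyclin genes, JUN rose from 8.86, 8.04 and 8.91 CPM to 23.8, 23.5 and 21.1 CPM (log2 fold change 1.42), and STAT3 (0.59) and TCF7L2 (0.38) were higher, while CTNNB1, the gene of β-catenin, did not pass (0.06). CCND3 was higher and CCND1 lower in KO. No link between these regulators, MYC included, and the cyclin, kinase or inhibitor genes was tested. MYC, which is known to activate CDK4 through E-boxes such as those printed above, had 133, 129 and 120 CPM in WT and 154, 156 and 158 CPM in KO (log2 fold change 0.29, SE 0.0489, edgeR adjusted p = 6.03e-06), the opposite direction to CDK4.

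**Figure D4:**
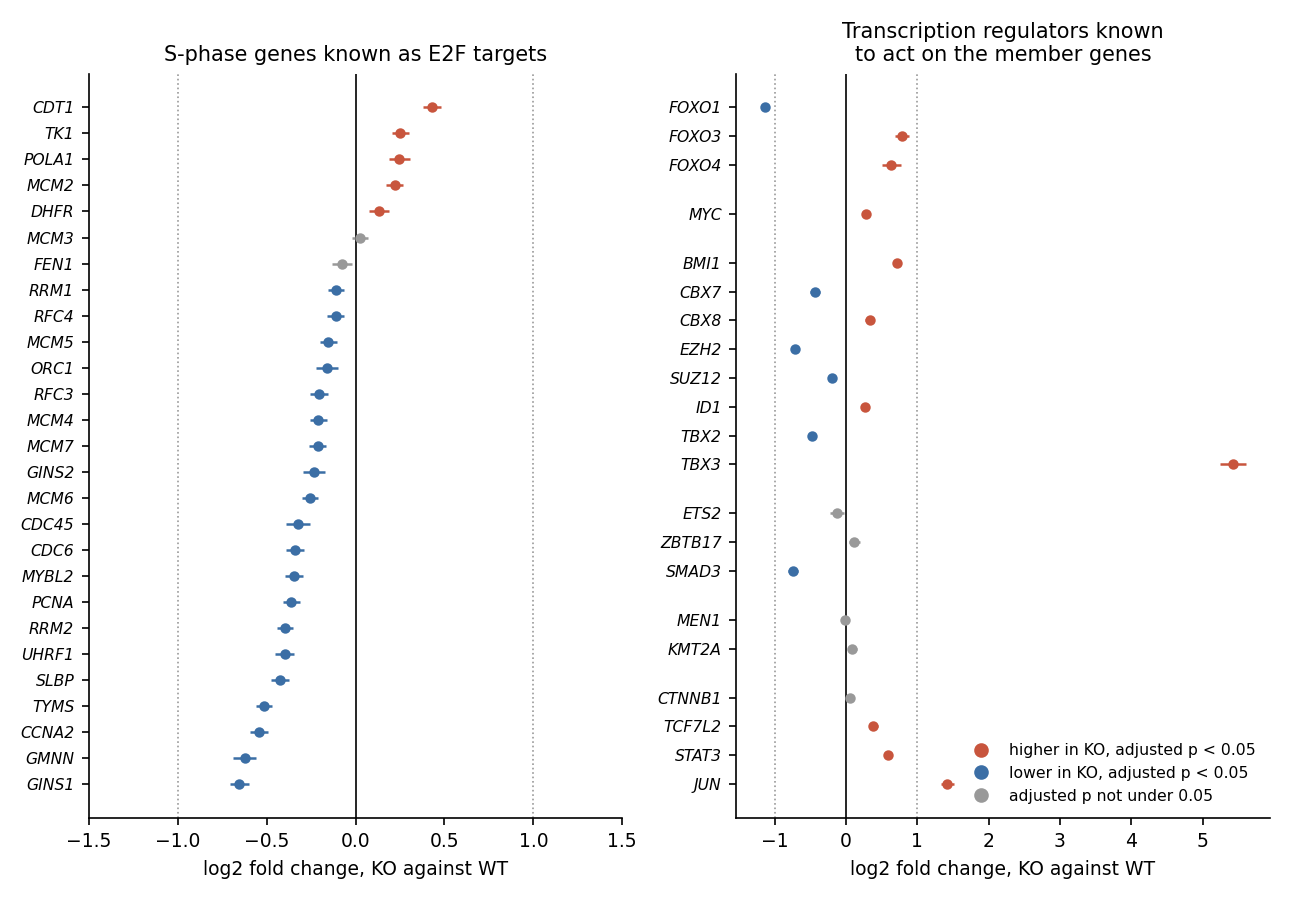
Log2 fold change (KO against WT, points, with bars of 1 SE) of 27 S-phase genes on the left and of 21 tested regulators on the right, with dotted lines at -1 and 1. Every S-phase gene lies between the lines (-0.65 to 0.43), and TBX3 (5.42), JUN (1.42) and FOXO1 (-1.14) lie outside them among the regulators.

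Position was not used to choose the genes, and the tested genes that start within 1 Mb of each were read as a description. Starts here are the outermost annotated ends of a gene, which for CCND3, CDK4, CDKN1B, CDKN2A and CDKN2C lie upstream of the RefSeq starts used above. Around CDK4, 40 genes were tested, and 8 were up and 4 down past both thresholds, beside 8.3% up and 7.73% down of all tested genes. The median log2 fold change of the 40 was 0.13, beside -0.07 for the whole of chromosome 12. The strongest of the near ones were TSPAN31 and AGAP2, a GTPase-activating gene, which fell from 10.3 to 0.315 and from 2.77 to 0.216 CPM, and AVIL, encoding advillin, which rose from 1.54 to 8.15 CPM. TSPAN31 and AGAP2 passed the filter on low counts only with their WT libraries. The unnamed gene ENSG00000273805 also fell (log2 fold change -1.72). CDK4 lay between these with a change of -0.22, and the levels of MARCHF9, METTL1 and TSFM, all nearby, did not pass the test. Other genes within 200 kb passed the adjusted p but not the fold threshold, in both directions. Among them B4GALNT1 (-0.94) and CTDSP2 (-0.36) were lower and CYP27B1 (0.37) and OS9 (0.30) higher.

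Around CDKN1B, 16 genes were tested, and 5 were up and 1 down, beside 8.3% and 7.73% of all tested genes. Those past both thresholds within 200 kb came to the unnamed gene ENSG00000241352 (log2 fold change 1.42), which passed the filter on low counts only with its KO libraries. Per kb of exon, CDKN1B (0.117 RPKM in WT) and the nearby genes GPR19 (1.34) and DDX47 (0.734, an RNA helicase gene) had lower levels in WT than CREBL2 (7.49) and DUSP16 (8.61) on one side and HEBP1 (23.7) on the other. DDX47 and CDKN1B were lower in KO (log2 fold changes -0.45 and -0.64), while GPR19 did not pass (-0.18). CREBL2 (0.36), DUSP16 (0.77) and HEBP1 (1.70) were higher, and GSG1, beyond HEBP1, was lower (-2.50).

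Around CDK6, 11 of 15 tested genes were higher in KO and 0 lower at adjusted p under 0.05. The median log2 fold change of the 15 was 0.39, beside -0.04 for chromosome 7. Among all tested genes 31.9% were higher and 32% lower by that p, and 8.3% were up and 7.73% down past both thresholds. Around CCND1, 1 of 12 genes was up, ANO1, which passed the filter on low counts only with its KO libraries. LTO1, whose exons on the opposite strand cover 10.4% of CCND1's exon bases, had a log2 fold change of 0.08 that did not pass (edgeR adjusted p = 0.397). Around RB1, none of 12 genes was past both thresholds, and 3 were higher and 3 lower. CCND3 had 31 tested neighbours with 1 up and 2 down. CCND2 had 10 with 1 up, and none of the 3 around CDKN2A, the 4 around CDKN2B or the 6 around CDKN2C was past both thresholds.

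**Figure D5:**
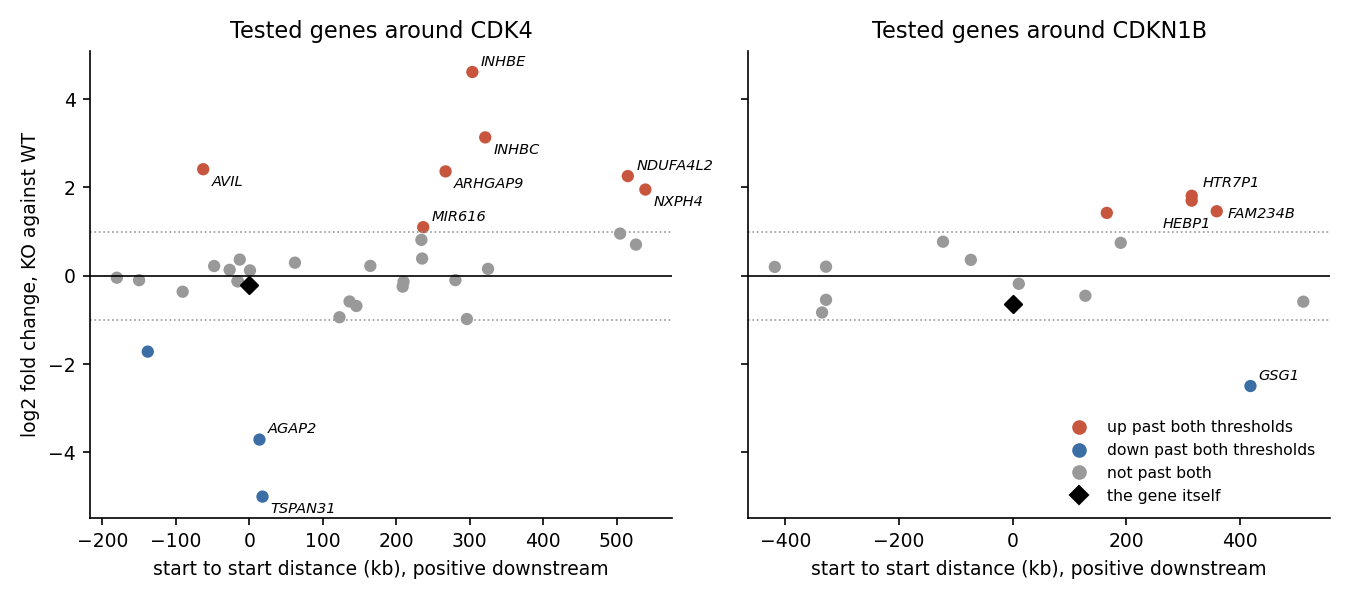
Log2 fold change (KO against WT) of tested genes in the nearer part of the 1 Mb window, against the distance in kb between their outermost annotated start and that of CDK4 (left) or CDKN1B (right), positive downstream, with the gene itself as a black diamond at 0. CDK4 (-0.22) lies beside TSPAN31 (-5.00) and AGAP2 (-3.71). CDKN1B (-0.64) lies near genes mostly between -1 and 1, with ENSG00000241352 (1.42) outside. Further downstream HEBP1 (1.70), HTR7P1 (1.81) and FAM234B (1.46) lie above them and GSG1 (-2.50) below.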

How the data were processed

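RNA of A2780 WT and A2780 CDK12 KO cells (3 libraries each) was sequenced as stranded single-end reads. The authors deposited raw read counts per Ensembl gene, made per the labels and the study's methods by mapping to GRCh38 with STAR and counting with HTSeq. Tool versions, the annotation release and the strand setting are not given in the sources used here. Genes were located with GENCODE 44, which held 93.1% of the 60483 listed IDs.

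Counts were filtered with filterByExpr (minimum count 10, minimum total 15), scaled by TMM and compared, KO against WT over all 6 libraries, with edgeR 4.0.16 (glmQLFit and glmQLFTest, two-sided, R 4.3.3), with Benjamini-Hochberg adjustment over the 16198 tested genes. Biological coefficients of variation were 4.35% overall. The precision of low genes was limited by totals of 11098400 to 30899045 counts per library. RPKM was the TMM-scaled CPM per kb of the union of exons. Ratios of pooled counts have exact 95% intervals for counting error. Exact permutation tests used log2(CPM + 0.1).

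The alternatives were limma 3.58.1 with voom (the study's tool), DESeq2 1.42.0, other scalings and count filters, thinning to equal totals, glmTreat, an adjusted p of 0.01 and leaving out each library. The code was tested on simulated data. The genes named were all 10 members, genes of the lists past both thresholds, neighbours within 200 kb past both thresholds and the 2 tested genes nearest in pattern to each called member. Further list genes and all other neighbours were named after their values were seen. Members and lists were chosen with earlier results of these data known.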

Additional observations from a re-analysis of the deposited data

How the results depend on the processing

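CCND1, CCND3, CDK4, CDK6, CDKN2A and RB1 kept their direction and their side of the adjusted p in every fit run with them (11 for CDK6, 13 for the others). For CDKN1B the adjusted p was 0.0540 with voom, 0.163 with DESeq2, 0.0540 with upper-quartile scaling, 0.0623 without the filter, and 0.0610 to 0.228 in the 4 of 6 fits without 1 library that lost the call. The 10 genes gave 1 call down with 10 counts in every library and with thinned counts, where CDK6 was not tested, and 1 by glmTreat, which lost CCND1. Of the other G1/S genes, 0 were up by glmTreat and 0 to 1 without 1 library. With 10 counts in every library 1 was down, since CCNE2 was not tested there. With that filter 1 regulator was up, since TBX3 was not tested. With longest-transcript lengths the log2 ratio of the D cyclin sum was -0.54 instead of -0.75, the changes in the CCND1 and CCND3 shares were -22.5 and 22.5 points, and that of the CDK6 share -0.0596 instead of -0.0943 points. No paired analysis was possible because the labels number the libraries consecutively and pair none. Depth limits CCND2, CDK6, CDKN1B, CDKN2B and CDKN2C, which had at most 35 reads in any library.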

Other observations

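The tested genes whose pattern over the 6 libraries was most like that of CCND1, by the Euclidean distance of mean-centred log2 CPM over 16197 genes, were WIPF1, an actin regulator, at 0.0526 and ARHGEF10, a guanine nucleotide exchange factor, at 0.0544. WIPF1 had 1238, 1459 and 528 reads in WT and 585, 621 and 393 in KO (log2 fold change -1.03). A value close to the -1.04 of CCND1 follows from choosing genes by this distance. ARHGEF10 had 1662, 2000 and 722 reads against 757, 871 and 533 (-1.04).

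For CDK6 the nearest were SPAAR, which encodes a small polypeptide, at 0.451 and DOCK8, another exchange factor, at 0.563. SPAAR had 33, 50 and 11 reads in WT and 4, 3 and 4 in KO (log2 fold change -3.06). DOCK8 had 134, 179 and 56 reads against 24, 20 and 24 (-2.44). The pattern of SPAAR, like that of CDK6, rests on few KO reads, and both genes passed the filter on low counts only with their WT libraries.

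Some antisense RNAs of these loci were counted. CCND2-AS1 and CDK6-AS1 had 0 reads in each of the 6 libraries, and CDKN2B-AS1 had 9, 4 and 4 reads in WT and 4, 8 and 7 in KO. The processed copies CDK4P1, CCND2P1, CCND3P1 and CCND3P2 had 0 reads in all.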
